A study of Rattus norvegicus with 6 samples.

Results

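The small RNA libraries made from vesicles of rat bone marrow mesenchymal stromal cells (BMSCs), 6 in all, each listed rno-miR-221-3p, rno-miR-126a-3p and rno-miR-31a-5p (rno for rat, left off from here on), microRNAs known from work on blood vessels. They were chosen by name, together with rno-miR-222-3p, the close relative of miR-221-3p, with no threshold on their values but with earlier results of these data known. All 4 were listed, out of 311 distinct mature sequences, 197 of them annotated miRNAs. The cells came from the marrow of the tibias and femurs of male SD rats aged 4 weeks. The groups were hypoxia, with cells at 1% oxygen (3 libraries), and normoxia, the control, with cells at 21% oxygen (3 libraries). Cultures of both groups had 5% CO2 and, per the labels, medium with 10% fetal bovine serum. No transgene or other agent is named for either group, and the time spent at each oxygen level is not given in the sources used here.

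A miRNA is cut from a hairpin precursor, and 1 of its strands guides a silencing complex to messenger RNAs that pair with its seed, bases 2 to 8 from the 5′ end. miR-126 is the classic endothelial miRNA, made from within the gene Egfl7, and it supports VEGF signalling by repressing Spred1 and Pik3r2. miR-221 and miR-222 repress Kit and the cell cycle inhibitor Cdkn1b, and they can slow the growth of endothelial cells and favour that of vascular smooth muscle. miR-31 represses, in human cells, the factor that inhibits HIF.

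The mature sequences are shown because the seed sets which messages each miRNA can pair with; capitals mark the seed. All 4 deposited sequences equalled the RefSeq entries of the same name (rat build GRCr8).
miR-221-3p: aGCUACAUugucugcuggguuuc
miR-222-3p: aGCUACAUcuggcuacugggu
miR-126a-3p: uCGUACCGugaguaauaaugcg
miR-31a-5p: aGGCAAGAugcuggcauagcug
The 4 sequences had 3 distinct seeds. miR-221-3p and miR-222-3p began with the same 8 bases, and no other listed sequence had their seed. Position by position from the 5′ end they had the same base at 11 of 21, but with a shift of 1 base after the shared start they matched at 10 of the next 12. The seeds of miR-126a-3p and miR-31a-5p were each found in no other listed sequence.

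In RefSeq (GRCr8) miR-221-3p lies at chrX:6023246-6023268 and miR-222-3p at chrX:6022682-6022702, both on the plus strand, in hairpins 458 bases apart that 2 long non-coding RNA genes span. miR-126a-3p lies at chr3:29813219-29813240 on the plus strand, inside the span of Egfl7. miR-31a-5p lies at chr5:108714906-108714927 on the minus strand, inside the span of a long non-coding RNA gene. The hairpins of the X-linked pair are shown because their products were counted at very different numbers. Capitals mark the mature strand.
Mir222: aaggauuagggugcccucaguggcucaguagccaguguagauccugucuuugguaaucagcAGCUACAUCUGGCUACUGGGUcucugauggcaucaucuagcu
Mir221: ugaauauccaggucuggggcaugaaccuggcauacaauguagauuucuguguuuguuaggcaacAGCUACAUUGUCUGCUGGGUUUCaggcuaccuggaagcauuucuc

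Library totals ran from 106954 to 248542 counts. The labels name no separate animals or cultures behind the replicates, so each p-value below measures spread among libraries that may be technical. Hypoxia replicate 1 stood apart. It listed 85 sequences against 129 to 183 in the others, and its mean correlation with the other libraries (log2(CPM + 1), 107 sequences) was 0.658 against 0.679 to 0.753. All 10 miRNAs taken here as markers of mesenchymal stromal cells were listed in the table. They made up 32.0 to 40.9% of the counts of hypoxia libraries and 30.4 to 44.6% of those of normoxia libraries. Most of these counts were of miR-21-5p, and whether the share reflects the cell of origin was not tested. In hypoxia replicate 1 miR-29a-3p and miR-145-5p were not listed, and in normoxia replicate 1 miR-145-5p was not. In vesicle RNA, fewer vesicles of one origin and less of a miRNA per vesicle cannot be told apart.

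miR-221-3p was the most abundant of the 4. It was counted 167, 170 and 198 times in hypoxia replicates 1 to 3, against 87, 483 and 261 in normoxia replicates 1 to 3. On the CPM scale, which divides each count by the summed counts of the tested sequences of its library and by a TMM factor, this was 1137, 1264 and 803 under hypoxia and 848, 2379 and 1277 under normoxia. The groups overlapped, and the highest value belonged to normoxia replicate 2. The mean was 1068 ± 238 CPM in hypoxia libraries and 1501 ± 790 CPM in normoxia libraries (SD, n = 3 per group). The log2 fold change of hypoxia over normoxia came to -0.49 (SE 0.60, 95% interval -1.79 to 0.80), with an adjusted p of 0.998 in edgeR's quasi-likelihood test. Normoxia replicate 2 carried this difference: without it the value was 0.046. Without hypoxia replicate 1 it was -0.29.

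miR-126a-3p was next in level. It had 81, 39 and 197 counts under hypoxia, against 57, 198 and 96 under normoxia. Scaled, this was 551, 290 and 799 CPM under hypoxia and 555, 975 and 470 CPM under normoxia. The lowest library was hypoxia replicate 2 and the highest normoxia replicate 2, and the groups overlapped. Hypoxia libraries averaged 547 ± 254 CPM and normoxia libraries 667 ± 271 CPM (SD, n = 3 per group). The log2 fold change was -0.29 (SE 1.10, interval -2.67 to 2.10), with an adjusted p of 0.998 in edgeR. Its sign depended on single libraries, at 0.15 without hypoxia replicate 2 and 0.16 without normoxia replicate 2. Without hypoxia replicate 1 it was -0.095.

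miR-31a-5p had 73, 18 and 78 counts under hypoxia, against 34, 22 and 37 under normoxia. That gave 497, 134 and 316 CPM under hypoxia and 331, 108 and 181 CPM under normoxia. Hypoxia replicate 1 was highest and normoxia replicate 2 lowest, with overlapping groups. It averaged 316 ± 181 CPM in hypoxia libraries and 207 ± 114 CPM in normoxia libraries (SD, n = 3 per group). Unlike the other pair, its fitted value lay above 0, at 0.61 (SE 1.48, interval -2.57 to 3.80), with an adjusted p of 0.998 in edgeR. The difference in direction between these miRNAs was not tested across groups beyond the ratios given further on. Without hypoxia replicate 1 the value was 0.32, without hypoxia replicate 2 it was 1.08 and without normoxia replicate 1 it was 1.25.

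miR-222-3p was scarce. It had 6 counts in hypoxia replicate 2 and 15 in hypoxia replicate 3, and was listed in neither hypoxia replicate 1 nor any normoxia library. These 2 libraries listed the most sequences, 183 and 166, and several other annotated miRNAs were also listed in them alone. The smallest count listed was 2 in each library except normoxia replicate 2, where it was 7, so the table may leave out lower values, and a miRNA that is not listed need not be absent. Being below the filter on low counts, miR-222-3p was not tested in the main edgeR fit. Without that filter edgeR gave it an adjusted p of 0.421, and no fold is given against a group without a listed count.

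**Figure D1:**
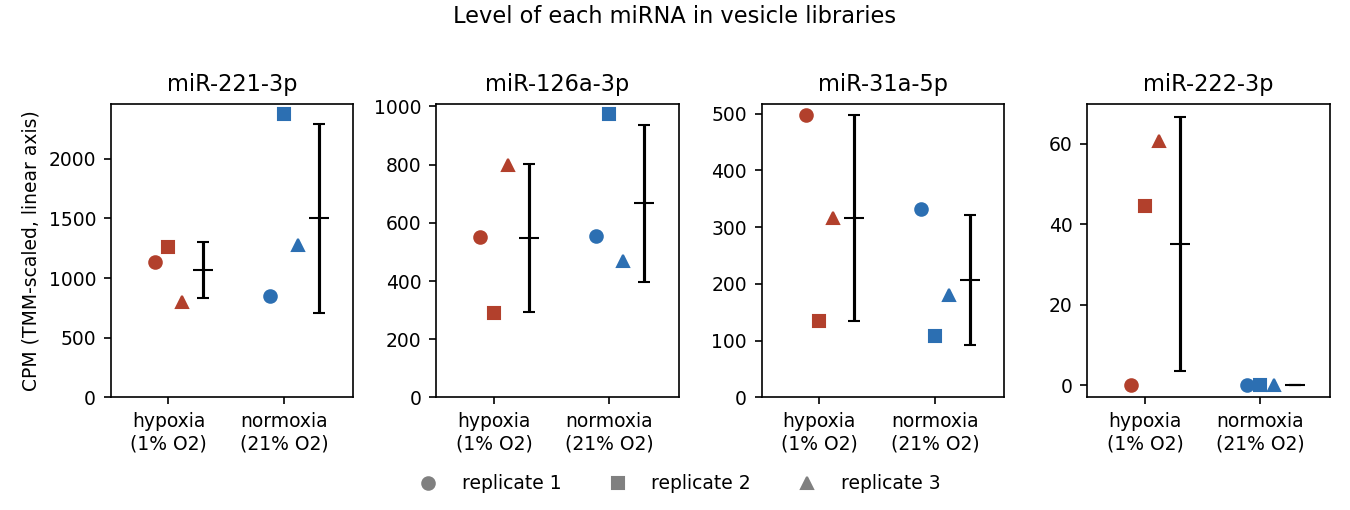
Level of each miRNA in CPM (linear axes, a separate scale per miRNA) for hypoxia and normoxia libraries, with the symbol giving the replicate number and black bars the mean ± SD of 3 libraries; 0 stands for not listed. Hypoxia and normoxia overlap for miR-221-3p, miR-126a-3p and miR-31a-5p. The 2 libraries that list miR-222-3p are both hypoxia libraries and are the 2 that listed the most sequences.

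Of the 3 tested miRNAs, 0 passed at an adjusted p under 0.05, beside 0 of 107 tested sequences (0%). At an unadjusted p under 0.05 edgeR gave 1 sequence (0.935%), DESeq2 1 and limma-voom 4. The unadjusted p-values in edgeR's fit were 0.427 for miR-221-3p, 0.800 for miR-126a-3p and 0.685 for miR-31a-5p. The hypoxia and normoxia values of 8 of 107 sequences (7.48%) did not overlap, and 0 of the 3 were among them. The intervals are wide. The upper and lower bounds for miR-126a-3p and miR-31a-5p each allow changes of several fold either way, so these data do not show that the groups were alike.

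**Figure D2:**
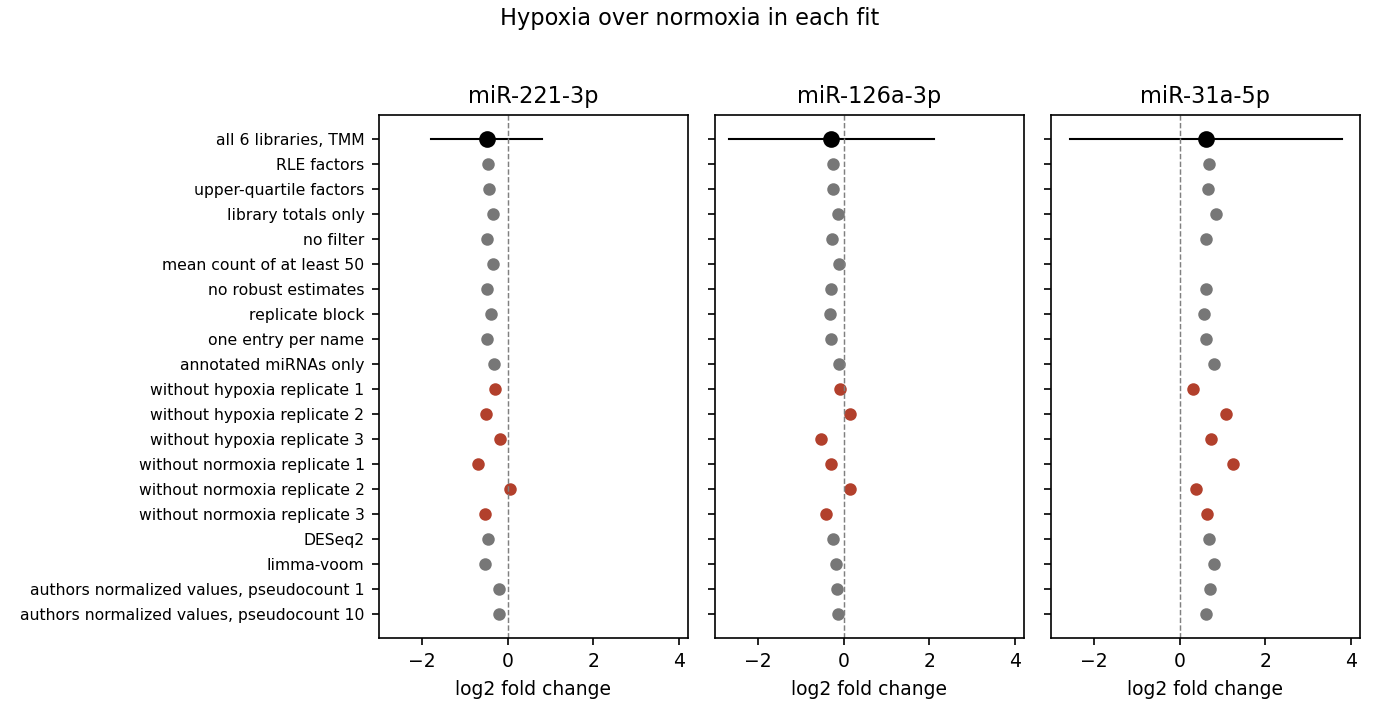
Log2 fold change, hypoxia over normoxia, of miR-221-3p, miR-126a-3p and miR-31a-5p in each fit; black, all 6 libraries with TMM factors and its 95% interval; red, 1 library left out; gray, another scaling, filter or tool. Values of miR-31a-5p stay above 0, and those of miR-221-3p and miR-126a-3p lie below 0 except when normoxia replicate 2 or, for miR-126a-3p, hypoxia replicate 2 is left out.

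Shares of all counts of a library use no scaling factor. miR-221-3p took a share of 0.112 ± 0.0307% in hypoxia libraries and 0.144 ± 0.0808% in normoxia libraries (SD, n = 3 per group). For miR-126a-3p the shares were 0.0581 ± 0.0277% under hypoxia and 0.0640 ± 0.0286% under normoxia. For miR-31a-5p they were 0.0351 ± 0.0248% under hypoxia and 0.0196 ± 0.0109% under normoxia. That difference of 0.0155 percentage points was 0.0023 without hypoxia replicate 1. Two-sided exact permutation tests of these shares gave p = 0.7, 0.8 and 0.5 in that order and 0.4 for miR-222-3p, and each adjusted value over the 4 tests was 0.8. With 3 libraries a group the smallest possible p is 0.1.

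The spread among libraries could be larger than counting error. In normoxia replicate 2 miR-221-3p took 0.235% of counts (95% exact binomial interval 0.215 to 0.257%), against 0.0813% (0.0652 to 0.10%) of those of normoxia replicate 1. These intervals describe counting error alone, because no molecular identifiers were named and amplified reads are not independent. All 3 pairs of normoxia libraries had disjoint intervals for miR-221-3p, and so did all 3 pairs of hypoxia libraries for miR-31a-5p. Fewer did elsewhere: 2 of 3 for miR-221-3p under hypoxia and for miR-126a-3p in each group, and 1 of 3 for miR-31a-5p under normoxia.

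By mean CPM the 3 tested miRNAs ranked 34, 48 and 75 of 107. miR-128-3p (1641 CPM) and miR-146b-5p (1480 CPM) stood next above miR-221-3p (1284 CPM), and miR-199a-5p (1187 CPM) and miR-30a-5p (1171 CPM) next below. Around miR-126a-3p (607 CPM) were miR-676 (644 CPM) and miR-674-3p (615 CPM) above and an unannotated sequence (576 CPM) and miR-10a-5p (528 CPM) below. miR-31a-5p (261 CPM) lay between miR-872-5p (317 CPM) and miR-192-5p (294 CPM) above and an unannotated sequence and miR-455-3p (both 255 CPM) below. Their errors were set beside those of sequences at like levels. Of 18 other sequences within 2-fold of the level of miR-221-3p the median standard error was 0.71, beside its own 0.60. The medians were 1.45 for 38 sequences near miR-126a-3p, beside 1.10, and 1.76 for 40 sequences near miR-31a-5p, beside 1.48.

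**Figure D3:**
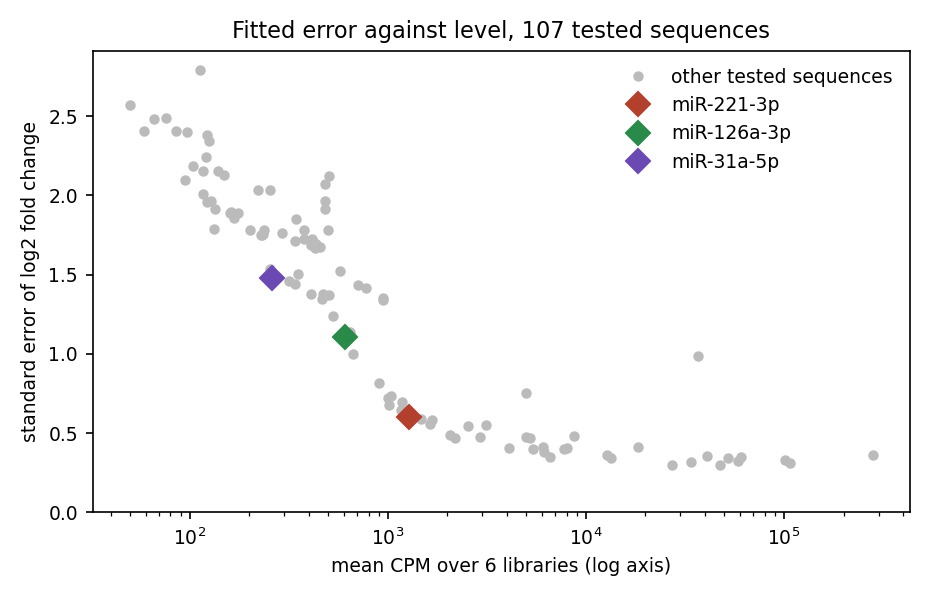
Standard error of the log2 fold change (linear axis) against mean CPM over 6 libraries (log axis) for 107 tested sequences, with miR-221-3p, miR-126a-3p and miR-31a-5p as coloured diamonds. The error falls with level, and the diamonds, at 0.60, 1.10 and 1.48, lie within the cloud of other sequences.

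The order of the counts was the same in every library: miR-221-3p, miR-126a-3p, miR-31a-5p, then miR-222-3p, which 4 libraries did not list. Mature miRNAs are nearly equal in length, but ligation and amplification also depend on sequence, and nothing here measures that, so the order is one of counts and need not be one of molecules. On the log2(CPM + 1) scale miR-221-3p exceeded miR-126a-3p by 1.08 ± 0.73 and miR-31a-5p by 2.40 ± 1.32, and miR-126a-3p exceeded miR-31a-5p by 1.31 ± 1.01 (SD, n = 6 libraries). Each of these 3 pairs kept its order in 6 of 6 libraries, with p = 0.031 in a two-sided exact sign-flip permutation test, the smallest that 6 libraries can give, and an adjusted p of 0.031 over all 6 pairs of the 4 miRNAs. No test result is given for the pairs with miR-222-3p, which set a 0 in place of each unlisted value and enter only the adjustment. Within single libraries 2 neighbours were not separated beyond counting error. These were miR-221-3p and miR-126a-3p in hypoxia replicate 3, at 198 and 197 counts (ratio 1.01, 95% exact binomial interval 0.821 to 1.23), and miR-126a-3p and miR-31a-5p in hypoxia replicate 1, at 81 and 73 counts (ratio 1.11, interval 0.799 to 1.54).

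The ratios of counts within a library, which do not depend on scaling, varied widely. The log2 ratios further on use log2(CPM + 1), and the added 1 makes them depend on scaling in part. Counts of miR-221-3p per count of miR-126a-3p were 2.06, 4.36 and 1.01 under hypoxia and 1.53, 2.44 and 2.72 under normoxia. The highest and the lowest ratio were both hypoxia libraries. Per count of miR-31a-5p they were 2.29, 9.44 and 2.54 under hypoxia and 2.56, 22.0 and 7.05 under normoxia. Replicate 2 was the highest of its group under hypoxia and under normoxia. In both of these libraries miR-31a-5p was at its lowest of the group and, in CPM, miR-221-3p at its highest. By share of counts miR-221-3p was highest under hypoxia in replicate 1, at 0.141% against 0.116% in replicate 2. On the log2 scale the ratio to miR-126a-3p differed between groups by -0.055 (exact permutation p = 1.0) and the ratio to miR-31a-5p by -0.95 (exact permutation p = 0.5), and adjusted over 3 ratios the values were 1.0 and 0.75. Without normoxia replicate 2 the difference in the ratio to miR-31a-5p was -0.16, and without normoxia replicate 1 it was -1.71. For the ratio to miR-222-3p, which depends on the value given to libraries that do not list it, the exact permutation p was 0.2 and the adjusted one 0.6.

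**Figure D4:**
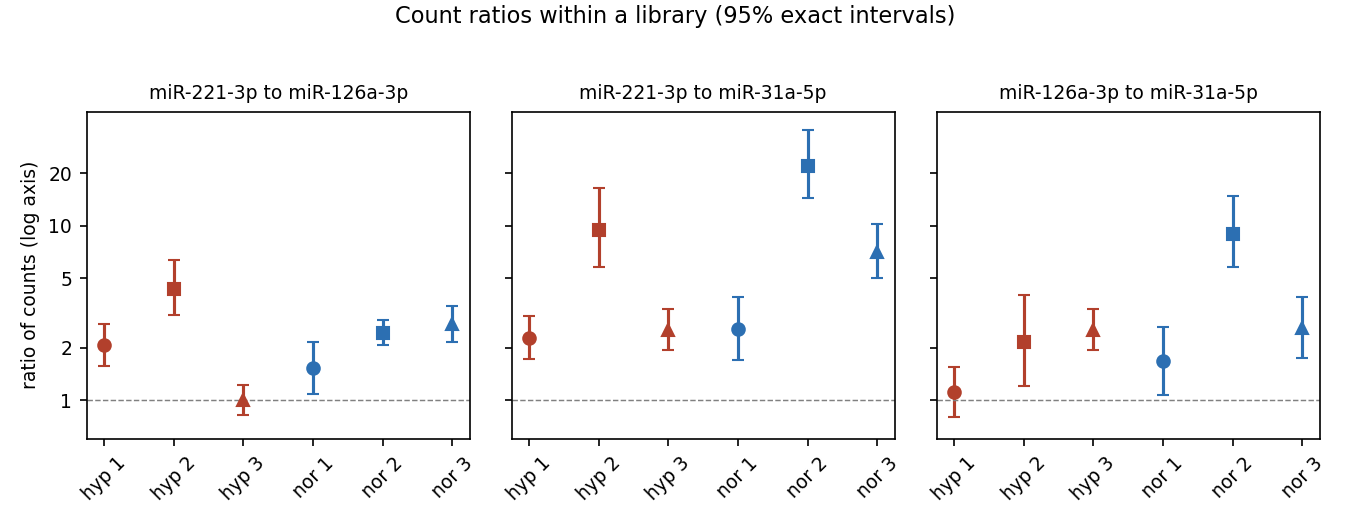
Ratios of counts within each library (log axis) with 95% exact binomial intervals, hypoxia libraries in red and normoxia libraries in blue, for miR-221-3p to miR-126a-3p, miR-221-3p to miR-31a-5p and miR-126a-3p to miR-31a-5p. The ratios range from 1.01 to 4.36, from 2.29 to 22.0 and from 1.11 to 9.0, and hypoxia and normoxia libraries overlap in each.

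The pair with the shared seed was counted unevenly. Of the summed counts of the pair miR-222-3p made up 3.41% in hypoxia replicate 2 (95% exact binomial interval 1.26 to 7.27%) and 7.04% in hypoxia replicate 3 (3.99 to 11.3%). The other 4 libraries did not list it. With unlisted values taken as 0, it made up 21 of 1387 counts over all libraries, or 1.51%, and 6 of 1174, or 0.511%, without hypoxia replicate 3. Normoxia replicate 2, richest in miR-221-3p with 483 counts, did not list miR-222-3p, but listed nothing below 7 counts.

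The strands opposite the measured ones were scarce too. miR-221-5p had 17 counts in hypoxia replicate 3, against 22 and 25 in normoxia replicates 2 and 3, and was listed in no other library. With unlisted values taken as 0, it made up 4.48% of the counts of both strands of that hairpin over all libraries. Where listed, it made up 7.91% in hypoxia replicate 3 and 4.36 and 8.74% in normoxia replicates 2 and 3. The log2 fold change of miR-221-5p was -1.67 (SE 2.57, interval -7.22 to 3.87), with an unadjusted p of 0.526 and an adjusted p of 0.998 in edgeR. This fit also took each unlisted value as 0, in hypoxia replicates 1 and 2 and normoxia replicate 1, so the size of the fold depends on those values. The fold was -0.98 without hypoxia replicate 1. By mean CPM miR-221-5p ranked 107 of the 107 tested sequences. miR-31a-3p had 5 counts, all in hypoxia replicate 2, where it made up 21.7% of the 2 strands beside 18 counts of miR-31a-5p; it was listed in no other library. miR-222-5p and miR-126a-5p were not listed. Of the 8 strands of these hairpins, 6 were listed and 4 tested, and 0 were called.

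The patterns most like each miRNA were sought among 97 other tested annotated miRNAs, by the root mean square difference of log2(CPM + 1), centred on its mean over the 6 libraries. For miR-126a-3p the nearest was miR-218a-5p, at 0.16, where the median over the 97 was 1.26. miR-218a-5p was counted 138, 72 and 274 times in hypoxia libraries and 108, 319 and 181 times in normoxia libraries. Its count ratio to miR-126a-3p was 1.70, 1.85 and 1.39 under hypoxia and 1.89, 1.61 and 1.89 under normoxia. That this ratio varied little follows from its choice as the nearest of 97 over the same libraries. miR-99b-5p (0.24) and miR-24-3p (0.34) came next. For miR-221-3p the nearest were let-7a-5p (0.40), let-7f-5p (0.42) and miR-450a-5p (0.43), against a median of 1.34. For miR-31a-5p they were miR-140-3p (0.42), miR-423-5p (0.43) and miR-30a-5p (0.43), against a median of 1.45. These distances are descriptions over 6 libraries, and all miRNAs of a library share its depth and scaling.

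Other miRNAs with a known part in vessel growth gave no call. Of a list of 15 miRNAs known to promote it, miR-126a-3p and miR-31a-5p left out, 10 were listed and 8 tested. Fitted values lay above 0 for 2 and below 0 for 6, beside 44 above and 63 below over all 107 sequences. In either direction edgeR called 0 of the 8. Their median was -0.32, beside -0.14 over all 107 sequences. Without hypoxia replicate 1 there were 7 above and 1 below, with a median of 0.39 beside 0.15 over 130 sequences. The most abundant of them, miR-21-5p, a miRNA high in many mesenchymal cells, had -0.16 (SE 0.36), and 0.32 without hypoxia replicate 1. Of 12 miRNAs known to restrain vessel growth, miR-221-3p and miR-222-3p left out, 7 were listed and 6 tested, 2 above 0 and 4 below, with 0 called and a median of -0.14. With upper-quartile factors, library totals only or without hypoxia replicate 1 the split was 3 above and 3 below. By mean CPM the most abundant was miR-320-3p (36890 CPM), at 1.09 (SE 0.99), and -0.64 without hypoxia replicate 1. That rank rests on hypoxia replicate 1, where it had 18226 counts against 3338 of miR-100-5p (33806 CPM), which was higher in each of the other 5 libraries and had a log2 fold change of -0.24 (SE 0.32).

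Markers of other cells that could carry miR-126 were looked at beside it. Of 4 endothelial strands, those of miR-126a and miR-126b, only miR-126a-3p was listed, so the endothelial list holds nothing independent of it. Platelets and blood cells also carry miR-126. Of 3 miRNAs typical of platelets, miR-126a-3p itself and miR-191a-5p were listed and miR-223-3p was not. Of 9 names of blood cell markers 4 were listed, miR-451-5p, miR-144-5p, miR-486 and miR-150-5p, and miR-144-3p, miR-223-3p, miR-142-3p and miR-142-5p were not. The name miR-486-5p was absent, but the entry miR-486 names no strand, so that marker need not be missing. The sum of the 4 listed was 0 to 0.0583% of counts under hypoxia and 0.0253 to 0.103% under normoxia. In counts the sum was 0, 69 and 145 in hypoxia replicates 1 to 3 and 110, 52 and 129 in normoxia replicates 1 to 3, beside 81, 39 and 197 counts of miR-126a-3p under hypoxia and 57, 198 and 96 under normoxia. miR-223-5p, the other strand of the miR-223 hairpin, was not on the list and was looked up after the values were seen. It had 8 and 60 counts in hypoxia replicates 2 and 3, against 25 and 12 in normoxia replicates 1 and 3, and was listed in no other library. The liver miRNA miR-122-5p was listed in every library, at 0.499 to 0.787% of counts under hypoxia and 0.464 to 0.905% under normoxia. Of 5 miRNAs of striated muscle 3 were listed, miR-1-3p, miR-1b and miR-206-3p, with a summed share of 0.147 to 1.89% under hypoxia and 0.324 to 0.487% under normoxia, highest in hypoxia replicate 1. The part of these other sources in the levels of the 4 miRNAs was not tested.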

How the data were processed

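Small RNA from vesicles of rat BMSCs was sequenced in 6 libraries on an Illumina HiSeq instrument, per the labels' protocols. The tools named are Novoalign 3.02.12 and cutadapt 1.9.3, with the rat build rn6, per the submitters' processing notes, which state no role. The counter, the miRNA release and any filters are not stated in the sources used. Raw tag counts per mature miRNA were deposited by the authors. The authors also deposited normalized tag counts, treated here as a score, whose method is not stated. A blank cell was taken as 0. The 353 rows held 322 names and were reduced to 311 distinct sequences; rows with the same sequence had the same counts.

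The test was the quasi-likelihood F test of edgeR 4.0.16 (R 4.3.3) with TMM factors (0.904 to 1.25) and robust estimates, on the 107 sequences that passed filterByExpr (a count of at least 10, a total of at least 15). P-values were adjusted by Benjamini-Hochberg over all 107, with a threshold of 0.05. Standard errors in edgeR's fits were derived from the log2 fold change and the F statistic. Intervals were built from these errors with a t quantile, so both are approximate. The common biological coefficient of variation was 1.07. The procedure was also run on simulated counts. These had much less spread among libraries than the real data, so that run does not show how it performs here. Shares, ratios and the order of levels were compared by exact permutation tests (scipy 1.17.1, Python 3.11.15). The members and lists were chosen with earlier results of these data known. Named miRNAs are the 4 members, their opposite strands and seed relatives, the 3 nearest patterns, the 2 neighbours in level on each side, and the most abundant non-member of each list on vessel growth; markers of other cells are named as listed or not, and miR-100-5p and miR-223-5p were added after their values were seen. Alternatives were other scaling factors and filters, DESeq2 1.42.0, limma-voom (limma 3.58.1), limma on log2(authors' normalized value + 1 or + 10), annotated sequences only, one entry per name, the replicate number as a block, and each library left out in turn.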

Additional observations from a re-analysis of the deposited data

How the results depend on the processing

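With a threshold of 0.05 on the adjusted p, 0 sequences were called in every other fit except limma on the authors' normalized values with a pseudocount of 1. That fit called 1, an unannotated sequence without a listed count under hypoxia. Over the fits with 1 library left out, the log2 fold change was -0.69 to 0.046 for miR-221-3p, -0.52 to 0.16 for miR-126a-3p and 0.32 to 1.25 for miR-31a-5p. The signs that turned were 0.046 for miR-221-3p without normoxia replicate 2, and 0.15 without hypoxia replicate 2 and 0.16 without normoxia replicate 2 for miR-126a-3p. In the other 13, 13 and 12 fits the values were -0.54 to -0.21, -0.31 to -0.11 and 0.56 to 0.85, with no turn of sign and no call. A mean count of at least 50 removes miR-31a-5p.

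With the replicate number as a block the values were -0.39, -0.31 and 0.56, in the same order, with 0 called. Deviations of libraries with the same number correlated at 0.19, 0.0033 and 0.19. Libraries with different numbers were not compared in this way, so these values do not decide whether the numbers pair the libraries. The main fit did not pair them.

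Differences in share (percentage points) ran from -0.063 to 0.014 for miR-221-3p and from -0.017 to 0.010 for miR-126a-3p with 1 library left out, from 0.0023 (without hypoxia replicate 1) to 0.027 for miR-31a-5p and from 0.0021 to 0.0051 for miR-222-3p. They turned to 0.014 without normoxia replicate 2 for miR-221-3p, and to 0.0098 without hypoxia replicate 2 and 0.010 without normoxia replicate 2 for miR-126a-3p. The log2 ratio of miR-221-3p to miR-126a-3p ran from -0.59 to 0.47, above 0 without hypoxia replicate 3 (0.47), normoxia replicate 2 (0.032) and normoxia replicate 3 (0.11). The log2 ratio to miR-31a-5p ran from -1.71 to -0.16, nearest to 0 without normoxia replicate 2. The number of hypoxia minus normoxia libraries that list miR-222-3p was 2, and 1 to 2 with 1 left out.

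No 5 libraries can give an exact sign-flip p below 0.0625, so the order of levels could not pass with 1 left out. The log2 differences were then 0.88 to 1.30 for miR-221-3p minus miR-126a-3p, 1.99 to 2.64 for miR-221-3p minus miR-31a-5p and 0.94 to 1.54 for miR-126a-3p minus miR-31a-5p. Against miR-222-3p they were 7.74 to 9.24 for miR-221-3p, 6.69 to 8.15 for miR-126a-3p and 5.32 to 6.80 for miR-31a-5p. Libraries without a listed count take the pseudocount there, so the size of these values depends on it. With all 6 libraries miR-221-3p minus miR-222-3p was 8.32 with a pseudocount of 1 and 6.04 with 10.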
